A study of Homo sapiens with 12 samples.

Results

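The 10 genes described here are feedback inhibitors of mitogen-activated protein kinase (MAPK) signalling and the immediate early gene IER3, which is listed with them. The inhibitors are the dual-specificity phosphatases DUSP1, DUSP4, DUSP5, DUSP6, DUSP8 and DUSP10, and the receptor signalling inhibitors SPRY2, SPRY4 and SPRED1. The 10 genes form a list by function that was drawn up with earlier results of these data known. Each was found by symbol among the 60675 gene IDs of the count table, 30808 of which had a count. Transcripts were counted by RNA sequencing in the human astrocytoma line SW1783, which had been exposed for 24 h to an aqueous extract of Aconitum carmichaeli Debeaux (ACD) root. The extract was given at 20 (low dose), 100 (medium dose) or 500 µg/mL (high dose), and the vehicle group received PBS with 2% DMSO. Per the methods of the study the extract was dissolved in this same solvent and added to growth medium, so 2% refers to the solution added. Each of the 4 groups had 3 libraries of the same line, kept in serum-containing L-15 medium, so all results concern 1 line. The herb was taken from the titles and treatment labels of the samples, because their protocol text describes Poria cocos instead. The labels do not say whether the replicates came from separate cultures, so p-values measure the spread between these libraries, which may be technical.

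In the MAPK pathway, growth factor receptors activate RAS, and RAS starts a relay of kinases that ends in ERK, while stress signals run through the parallel kinases JNK and p38. Dual-specificity phosphatases switch the last kinase of each relay off by removing its activating phosphates, and Sprouty and SPRED proteins act further up, between receptor, RAS and RAF. Many of these inhibitors are transcribed in response to the kinases they restrain, and they are known in glial cells and glioma as brakes on growth factor signalling.

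The libraries held 18863863 to 24200576 counts each. Levels are given as normalised counts, which are counts divided by the size factor of the library, and a gene was called where DESeq2 gave an adjusted p under 0.05 and a fold change over 1.5. The astrocytic label was checked first: VIM, CD44, SOX9, SLC1A3 and NES were present, whereas GFAP, S100B, AQP4, ALDH1L1 and SOX2 had a mean normalised count under 10. The summed level of the 10 astrocyte and glioma markers was 144300 to 152100 in vehicle and 152300 to 154000 at the high dose, nearly all of it VIM, which went from 88410 ± 4033 to 108000 ± 1073, and CD44, which went from 56910 ± 802 to 43680 ± 518. SLC1A3, a glutamate transporter, went from 690 ± 21.8 in vehicle to 126 ± 4.28 at the high dose, and NES, an intermediate filament, from 214 ± 11.6 to 64.7 ± 7.21 (SD, n = 3). The summed level of the 5 epithelial markers went from 4874 to 5078 in vehicle to 1809 to 1890 at the high dose, most of it KRT18, with EPCAM, CDH1 and KRT19 under a mean of 10. The 6 microglial and macrophage markers went from 3150 to 3316 to 3945 to 4230, most of it CD68, while PTPRC (275 ± 15.6 to 84.8 ± 19.8) and CSF1R (68.0 ± 8.29 to 30.9 ± 3.36) were called lower and AIF1, CX3CR1 and P2RY12 were under a mean of 10. Summed levels were 1524 to 1573 in vehicle and 1327 to 1425 at the high dose for 7 neuronal markers, 3250 to 3308 and 2360 to 2511 for 6 oligodendrocyte markers, and 576 to 605 and 617 to 675 for 5 endothelial markers. Within these sums the neuronal genes SNAP25 (704 ± 20.4 to 167 ± 13.6) and MAP2 (181 ± 7.57 to 322 ± 13.3) were called in opposite directions, and of the oligodendrocyte genes MBP was called higher (mean of 143 to 258) while CNP went from 3135 ± 25.7 to 2160 ± 78.1. Mitochondrial transcripts held 5.03 to 5.29% of counts in vehicle, and 6.45 to 7.56%, 10.6 to 10.8% and 8.99 to 9.29% at the low, medium and high dose. The part of these shifts in the results below was not tested, and in bulk RNA a change in the number of cells of a type cannot be told apart from a change in RNA per cell.

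At the high dose 8 of the 10 genes were called, and all 8 were higher than in vehicle. The 8 were DUSP1, DUSP5, DUSP6, DUSP8, DUSP10, SPRY2, SPRY4 and IER3. Over all 19453 genes tested, 18.2% were called at this dose and 8.66% were called higher. DUSP4 and SPRED1 also passed the adjusted p, as did 46.5% of all genes, but changed by less than 1.5-fold and in opposite directions. At the medium dose 3 of 10 were called, DUSP1, DUSP5 and IER3, again all higher, beside 3.81% of all genes called and 2.34% called higher. DUSP6, SPRY2 and SPRY4 passed the adjusted p at the medium dose, as did 29.5% of all genes, with fold changes under 1.5. At the low dose 0 of the 8 inhibitors with an adjusted p in DESeq2 were called, beside 0.118% of all genes, and edgeR also called 0; DUSP1 and SPRY4 alone had an unadjusted p under 0.05. DUSP8 and IER3 were given no adjusted p at the low dose, since their means lay under the cutoff of 263 normalised counts that DESeq2 set there. The median log2 fold change of the 10 genes was 0.02, 0.31 and 1.39 at the low, medium and high dose, while that of all genes tested was -0.01 or nearer to 0.

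**Figure D1:**
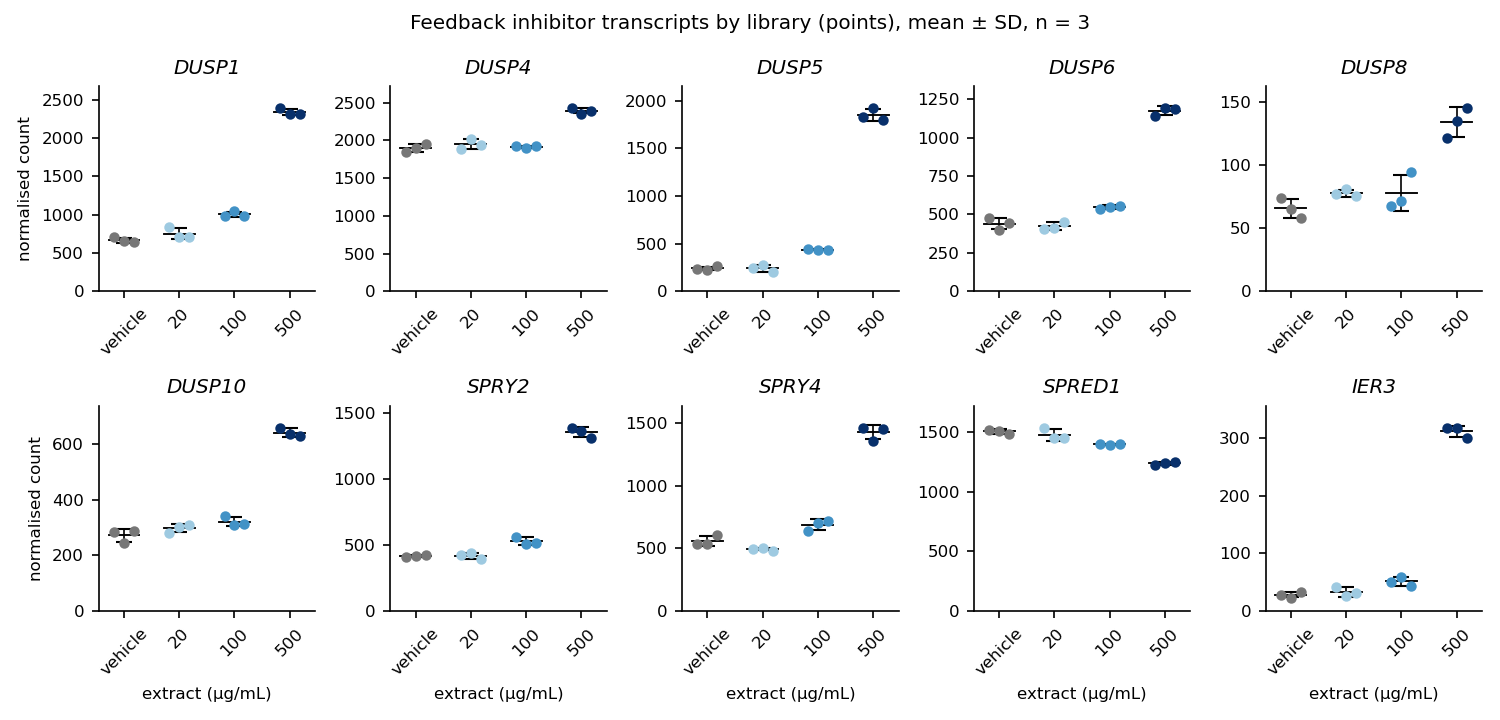
Normalised counts of the 10 genes, IER3 included (vertical axes from 0, a scale for each gene), in vehicle and at 20, 100 and 500 µg/mL of extract. Points are libraries, long bars means and whiskers SD over 3 libraries; in 9 panels the high dose points stand above all others, and in the SPRED1 panel they stand below.

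DUSP5 and DUSP6 encode the phosphatases with the strongest preference for ERK, DUSP5 in the nucleus and DUSP6 in the cytoplasm. DUSP5 (chromosome 10, 110497907 to 110511533, plus strand, GRCh38) had normalised counts of 235, 223 and 262 in the vehicle libraries and of 241, 274 and 205 at the low dose. The medium dose libraries had 444, 431 and 433, and the high dose libraries 1831, 1922 and 1797. The vehicle and low dose libraries of DUSP5 overlapped, and each further dose stood clear of the one before. DUSP5 was 1.82-fold higher than vehicle at the medium dose (log2 0.86 ± 0.0931 SE, DESeq2 adjusted p = 7.6e-19) and 7.73-fold higher with the high dose (2.95 ± 0.0862, adjusted p = 1.64e-254). At the low dose its log2 fold change in DESeq2 was 0.01, with a 95% interval from -0.19 to 0.20 (adjusted p = 0.988).

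DUSP6 (chromosome 12, 89347235 to 89352501, minus strand) had 476, 400.4 and 444 normalised counts in vehicle and 403, 413 and 453 at the low dose. It had 534, 551 and 557 with the medium dose and 1139, 1192 and 1187 with the high dose. Every medium dose library of DUSP6 lay above every vehicle library, and the high dose libraries were at more than the double of any of them. The fold change was 1.25 at the medium dose (log2 0.32 ± 0.0805 SE, DESeq2 adjusted p = 0.000553), which passed the p but not the fold threshold, and 2.67 at the high dose (1.42 ± 0.0761, adjusted p = 7.41e-76). An unnamed long non-coding RNA on the other strand, ENSG00000274021, covered 28.6% of the exon bases of DUSP6 and held 0 to 15 counts per library. Whether the counting used strand is not stated in the sources used here, so reads in that stretch could belong to either gene.

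DUSP1 and DUSP4 are inducible nuclear phosphatases that act on ERK, JNK and p38. DUSP1 (chromosome 5, 172768096 to 172771195, minus strand) had 705, 662 and 640.1 normalised counts in vehicle and 839, 714 and 704 at the low dose. It had 988, 1043 and 985 with the medium dose and 2393, 2320 and 2311 with the high dose. Low dose replicates 1 and 2 stood between the vehicle and medium dose libraries of DUSP1, replicate 2 only slightly above vehicle. Low dose replicate 3 was just under the highest vehicle library. The high dose level was 3.50-fold that of vehicle (log2 1.81 ± 0.0640 SE, DESeq2 adjusted p = 1.72e-173). At the medium dose DUSP1 stood at 1.503-fold (log2 0.59 ± 0.0670, DESeq2 adjusted p = 7.47e-17), just past the fold threshold. Without vehicle replicate 2, vehicle replicate 3 or medium replicate 2 this log2 fold change was 0.58, 0.56 and 0.56, and the gene was not called, while its adjusted p in DESeq2 stayed at 1.96e-11 or lower.

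DUSP4 (chromosome 8, 29333064 to 29350684, minus strand) had 1849, 1901 and 1948 normalised counts in vehicle, and 1885, 2016 and 1946 at the low dose. It had 1924, 1900 and 1925 with the medium dose and 2430, 2357 and 2394 with the high dose. The 9 libraries of the first 3 groups overlapped, and only the high dose libraries stood apart. DUSP4 was 1.26-fold higher at the high dose (log2 0.33, 95% interval 0.25 to 0.42, DESeq2 adjusted p = 2.56e-14), and its interval at the medium dose ran from -0.07 to 0.10 (adjusted p = 0.867). DUSP1 and DUSP4, which share substrates, had fold changes whose 95% intervals did not meet at the high dose.

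DUSP8 and DUSP10 encode phosphatases that favour JNK and p38 over ERK. DUSP10 (chromosome 1, 221701424 to 221742089, minus strand) had 285, 245 and 287 normalised counts in vehicle and 282, 303 and 309 at the low dose. It had 339.6, 310.3 and 314 at the medium dose, slightly above all vehicle libraries, and 658, 636 and 629 at the high dose. DUSP10 was 2.36-fold higher than vehicle at the high dose (log2 1.24 ± 0.0942 SE, DESeq2 adjusted p = 4.17e-38), with no overlap between the groups. At the medium dose its log2 fold change was 0.24 and did not pass (DESeq2 adjusted p = 0.0555). DUSP8 (chromosome 11, 1554051 to 1572271, minus strand), the least abundant of the 10 per kilobase of exon, had 73.8, 64.8 and 58.3 normalised counts in vehicle and 77.0, 80.6 and 75.3 at the low dose. It had 67.2, 71.8 and 94.2 with the medium dose and 122, 135 and 145 with the high dose. The high dose libraries of DUSP8 were above all others. Medium dose replicates 1 and 2 lay within the vehicle range and replicate 3 above it. All low dose libraries lay above all vehicle libraries, a log2 fold change of 0.24 with a 95% interval from -0.16 to 0.64. DUSP8 was 2.04-fold higher at the high dose (log2 1.03, 95% interval 0.65 to 1.41, DESeq2 adjusted p = 5.64e-07). At the medium dose its interval ran from -0.15 to 0.65 (adjusted p = 0.393). The processed pseudogene DUSP8P5 went from 34 to 47 counts in vehicle to 12 to 19 at the high dose, the opposite direction to DUSP8 (log2 -1.32, DESeq2 adjusted p = 0.000472). Pseudogenes of DUSP5 held at most 16 counts per library.

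SPRY2 and SPRY4 encode Sprouty proteins, which interrupt the signal between growth factor receptors and RAF. SPRY2 (chromosome 13, 80335976 to 80341126, minus strand) had 409, 418 and 428 normalised counts in vehicle and 422, 441 and 395 at the low dose. It had 561, 509 and 518 with the medium dose and 1385, 1363 and 1310 with the high dose. The low dose libraries of SPRY2 fell on both sides of the vehicle libraries, and both higher doses stood clear. SPRY2 was 1.26-fold higher at the medium dose (log2 0.34 ± 0.0776 SE, DESeq2 adjusted p = 0.000119) and 3.23-fold higher with the high dose (1.69 ± 0.0722, adjusted p = 7.17e-120).

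SPRY4 (chromosome 5, 142310427 to 142326455, minus strand) had 533, 533 and 604 normalised counts in vehicle and 498, 499.8 and 483 at the low dose. It had 638, 706 and 718 with the medium dose and 1461, 1360 and 1454 with the high dose. All low dose libraries of SPRY4 lay below all vehicle libraries, a log2 fold change of -0.17 with a 95% interval from -0.32 to -0.02 that did not pass the adjusted test (DESeq2 adjusted p = 0.272, unadjusted 0.0272). SPRY4 was 1.24-fold higher at the medium dose (log2 0.31 ± 0.0744, DESeq2 adjusted p = 0.000262) and 2.56-fold higher with the high dose (1.36 ± 0.0708, adjusted p = 1.98e-80). The antisense transcript SPRY4-AS1 rose as well, from 1 to 5 counts in vehicle to 14 to 19 at the high dose (log2 2.15, DESeq2 adjusted p = 0.00315).

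SPRED1, which brings the RAS inactivator neurofibromin to the membrane, went the other way. SPRED1 (chromosome 15, 38252836 to 38357249, plus strand) had 1521, 1513 and 1484 normalised counts in vehicle, and 1536, 1449 and 1448 at the low dose. It had 1400, 1393 and 1401 with the medium dose and 1227, 1239 and 1250 with the high dose. The libraries of SPRED1 at the medium dose were all below those of vehicle, and those at the high dose were lower again. SPRED1 fell at the high dose, to 0.823-fold of vehicle (log2 -0.28, 95% interval -0.38 to -0.19, DESeq2 adjusted p = 4.36e-08), and at the medium dose its log2 fold change was -0.11 (adjusted p = 0.0797). The gene for neurofibromin, NF1, had a log2 fold change of -0.05 at the high dose (DESeq2 adjusted p = 0.254).

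IER3, an early response gene induced by growth factors and stress and linked to cell survival, had the largest fold change of the 10. IER3 (chromosome 6, 30743199 to 30744548, minus strand) had 28.7, 23.7 and 33.3 normalised counts in vehicle and 42.3, 25.5 and 31.4 at the low dose. It had 51.0, 59.6 and 44.3 with the medium dose and 316, 317 and 299 with the high dose. The vehicle and low dose libraries of IER3 overlapped, the medium dose libraries stood above both, and the high dose libraries were several times higher again. IER3 was 1.82-fold higher at the medium dose (log2 0.87 ± 0.242 SE, DESeq2 adjusted p = 0.00215) and 6.01-fold higher at the high dose than at the medium dose (log2 2.59 ± 0.192, adjusted p = 1.07e-39). The long non-coding RNAs on its other strand, IER3-AS1 and HCG20, held at most 9 counts per library.

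**Figure D2:**
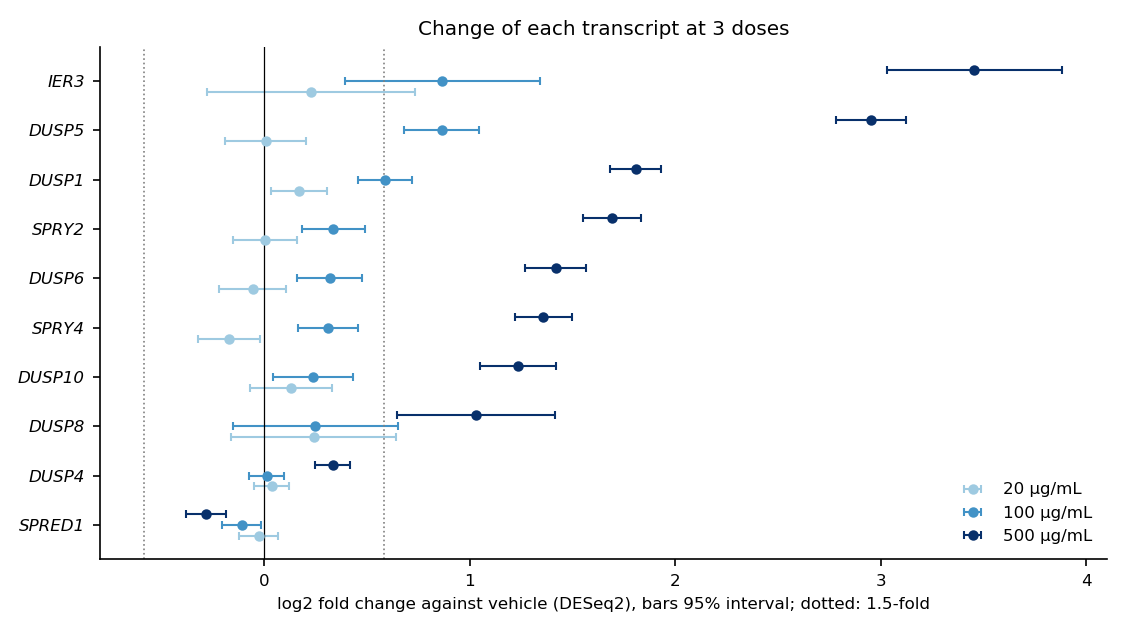
Log2 fold change of each of the 10 transcripts against vehicle at 20, 100 and 500 µg/mL in DESeq2, with bars for the 95% interval and dotted lines at a fold change of 1.5 in each direction. At 500 µg/mL the values ran from -0.28 for SPRED1 to 3.45 for IER3, and at 20 µg/mL all points lay within the dotted lines.

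The step from the medium to the high dose was larger than the step from the low to the medium dose for all 8 genes called at the high dose, as log2 fold changes; the difference between the steps was not tested. Between medium and high dose 8 of the 10 genes were called, all higher, beside 10.2% of all genes called and 4.58% called higher. The log2 fold changes of this step were 2.59 for IER3, 2.09 for DUSP5, 1.36 for SPRY2, 1.22 for DUSP1 and 1.10 for DUSP6, and those of SPRY4, DUSP10 and DUSP8 were 1.05, 1.00 and 0.78. DUSP4 and SPRED1 changed by 0.32 and -0.17 (DESeq2 adjusted p = 4.74e-13 and 0.00154). Between low and medium dose 2 genes were called, DUSP5 at 0.86 and IER3 at 0.64, beside 1.94% of all genes called and 1.35% called higher. The IER3 call at this step (DESeq2 adjusted p = 0.0393) did not hold without low replicate 1, 2 or 3 or without medium replicate 1 or 2, where its log2 fold change lay between 0.48 and 0.86 and an adjusted p, where DESeq2 gave one, was 0.0814 or higher. With the replicate number as a block IER3 was at 0.65 and was not called either (DESeq2 adjusted p = 0.075), which left 1 gene called, DUSP5. DUSP1, DUSP6, SPRY2 and SPRY4 passed the adjusted p at this step with fold changes from 1.26 to 1.39, and DUSP4, DUSP8, DUSP10 and SPRED1 did not pass. In the DESeq2 likelihood ratio test for any difference among the 4 groups all 10 genes passed, with adjusted p of 5.35e-07 or lower, beside 45.8% of all genes.

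Compared per kilobase of exon, the order of the transcripts changed with the dose. In vehicle the highest level was that of DUSP1 at 332 ± 16.4 normalised counts per kilobase, followed by DUSP4 at 261 ± 6.86, SPRED1 at 194 ± 2.49 and SPRY2 at 130 ± 2.94 (SD, n = 3). DUSP6 had 114 ± 9.78, DUSP10 96.4 ± 8.33, DUSP5 94.6 ± 8.03 and SPRY4 84.9 ± 6.24 per kilobase, and IER3 and DUSP8 were lowest at 21.2 ± 3.57 and 13.2 ± 1.57. DUSP10 and DUSP5 overlapped in these vehicle libraries, as did DUSP5 and SPRY4, so their order is not resolved. At the high dose DUSP1 was still highest at 1163 ± 22.3 per kilobase, and DUSP5 had moved from the seventh to the second place at 730 ± 25.4. SPRY2 followed at 421 ± 11.9, DUSP4 at 329 ± 5.03 and DUSP6 at 304 ± 7.55. IER3 at 230 ± 7.40, DUSP10 at 227 ± 5.33 and SPRY4 at 217 ± 8.59 per kilobase overlapped, and SPRED1 had moved from the third to the ninth place at 160 ± 1.45. DUSP8 stayed lowest at 27.0 ± 2.37. The order of the low dose means was that of vehicle, but the libraries of DUSP6, DUSP10 and DUSP5 overlapped there. At the medium dose the mean of DUSP5, 172 per kilobase, stood between those of SPRED1 and SPRY2. Its libraries overlapped those of SPRY2, so the order of DUSP5 and SPRY2 is not resolved. Summed over the 10 genes the normalised count was 6095 ± 104 in vehicle, and 6164 ± 98.7, 6970 ± 21.6 and 12860 ± 93.7 at the low, medium and high dose.

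**Figure D3:**
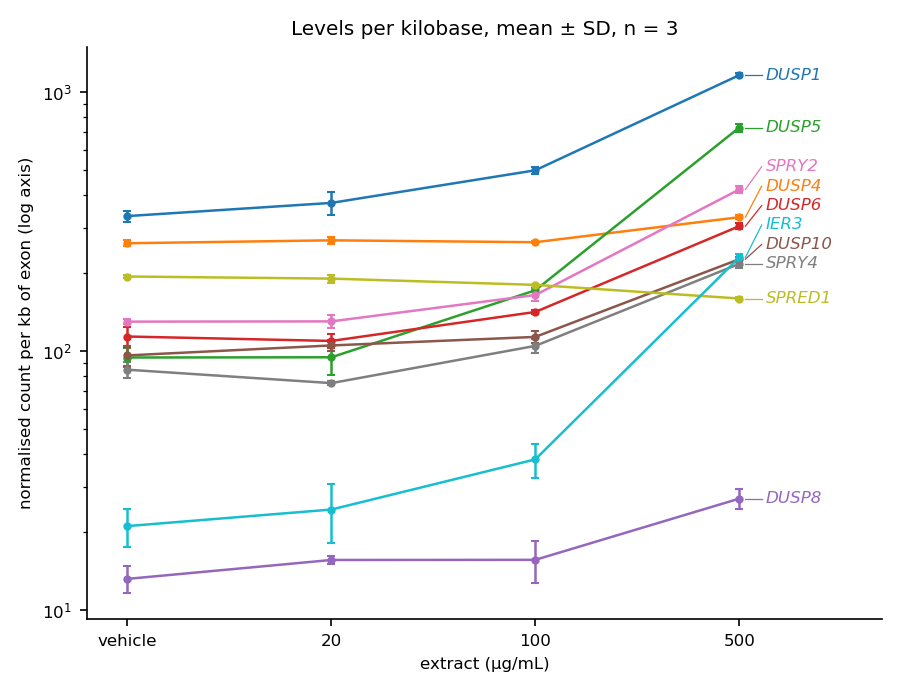
Mean normalised count per kilobase of exon (log axis) of each of the 10 genes in vehicle and at 20, 100 and 500 µg/mL, with whiskers for the SD over 3 libraries. The DUSP5 line rises from 94.6 to 730 and the IER3 line from 21.2 to 230, and the SPRED1 line falls from 194 to 160.

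The sequences just before the transcription start were read for 4 of the genes, to set inducible transcripts beside the one that fell. The RefSeq promoter table (GRCh38.p14, 250 bases before to 50 after each start) supplied the windows used here, for 7 of the 10 genes: DUSP1, DUSP6, DUSP8, DUSP10, SPRY2, SPRY4 and SPRED1. No window of DUSP4, DUSP5 or IER3 was used here. Each line below gives the 180 bases that end at the base before the start, read 5′ to 3′ on the strand of the gene. Capitals mark exact matches on either strand to the cyclic AMP response element (CRE, TGACGTCA), to its core TGACG, which is contained in it, and to the TATA box (TATAAA). DUSP1 lies at chr5:172771196-172771375 on the minus strand, DUSP8 at chr11:1572272-1572451 on the minus strand, DUSP6 at chr12:89352502-89352681 on the minus strand and SPRED1 at chr15:38252656-38252835 on the plus strand.
DUSP1: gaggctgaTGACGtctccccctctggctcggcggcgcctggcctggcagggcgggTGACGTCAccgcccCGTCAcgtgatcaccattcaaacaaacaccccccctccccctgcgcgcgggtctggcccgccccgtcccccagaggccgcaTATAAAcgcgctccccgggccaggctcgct
DUSP8: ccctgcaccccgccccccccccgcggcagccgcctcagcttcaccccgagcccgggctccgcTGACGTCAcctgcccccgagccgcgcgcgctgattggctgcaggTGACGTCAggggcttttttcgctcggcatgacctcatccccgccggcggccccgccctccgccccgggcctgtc
DUSP6: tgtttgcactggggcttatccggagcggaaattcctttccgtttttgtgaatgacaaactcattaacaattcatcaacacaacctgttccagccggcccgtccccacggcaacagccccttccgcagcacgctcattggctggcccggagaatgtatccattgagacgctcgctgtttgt
SPRED1: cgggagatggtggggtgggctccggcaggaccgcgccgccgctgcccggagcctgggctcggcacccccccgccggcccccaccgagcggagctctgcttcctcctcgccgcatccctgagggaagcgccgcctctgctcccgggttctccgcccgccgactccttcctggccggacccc
In the DUSP1 sequence the CRE lay at -125 to -118 from the start, further cores at -172 to -168 and -111 to -107, and a TATA box at -30 to -25. DUSP8, which rose less, held a CRE at -118 to -111 and another at -74 to -67. DUSP6 and SPRED1, of which the former rose and the latter fell, held no match to any motif searched. Of the other windows, SPRY4 held a core at -68 to -64, SPRY2 a core at -190 to -186 in 1 of its 3 windows, and DUSP10 a core across the start of 1 of its windows. Of the 35116 promoters listed there, 1.85% held a CRE, 24.6% a core and 11.5% a TATA box. The other motifs searched were AP-1 (TGANTCA, in 7.71% of promoters), an ATF4 site (TGATGCAA, in 0.866%), EGR1 (GCGTGGGCG, in 0.795%) and an NF-kB site (in 11.3%), and no window of these 7 genes held one.

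Of the other members of the same families, DUSP2, DUSP7, DUSP9, DUSP16, SPRY1, SPRY3, SPRED2 and SPRED3, 0 of 8 were called higher at the high dose and 2 were called lower in both DESeq2 and edgeR. Over all genes 8.66% were called higher and 18.2% called in all, so with 8 genes these counts are near the background; 2 were higher and 3 lower at an unadjusted p under 0.05. The genes called lower were DUSP2, an ERK and p38 phosphatase of immune cells (24.8 ± 1.99 normalised counts in vehicle, 7.64 ± 3.09 at the high dose), and SPRY3 (65.4 ± 9.52 and 29.2 ± 0.606), both of low level. DUSP7, a cytoplasmic ERK phosphatase like DUSP6, had 905 ± 10.1 normalised counts in vehicle and 744 ± 46.2 at the high dose, a log2 fold change of -0.29 that passed the adjusted p but not the fold threshold (DESeq2 adjusted p = 2.57e-05). SPRED2, the close relative of SPRED1, had 684 ± 43.0 and 728 ± 30.0 (adjusted p = 0.378 in DESeq2). The median log2 fold change of the 8 was -0.10.

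Of 10 other brakes on receptor and RAS signalling, 3 were called at the high dose, all higher, beside 8.66% of all genes called higher, and the median log2 fold change was 0.43. RASA1, which speeds the inactivation of RAS, had 1650, 1720 and 1679 normalised counts in vehicle and 3526, 3637 and 3493 at the high dose (log2 1.08 ± 0.0400 SE, DESeq2 adjusted p = 2.52e-157). CCNH on the other strand covers 14.7% of its exon bases. ERRFI1, an inhibitor of the EGF receptor, had 1349, 1419 and 1361 in vehicle and 2477, 2357 and 2515 at the high dose (log2 0.83 ± 0.0508, DESeq2 adjusted p = 1.09e-58). RASA2 had 245, 278 and 252 in vehicle and 384, 451 and 382 at the high dose (log2 0.65 ± 0.107, DESeq2 adjusted p = 6.46e-09). The high dose libraries of all 3 genes stood above the vehicle libraries.

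Ligands that start the relay changed in both directions. Of 17 growth factor genes 16 were tested at the high dose, with 4 called higher (PDGFB, EREG, HBEGF and HGF) and 4 lower (FGF7, PDGFD, EGF and FGF5), beside 18.2% of all genes called in either direction, and the median log2 fold change was 0.00. The 8 calls became 5 without high replicate 2 and 3 with the Wald test of DESeq2 against the fold threshold. FGF7, a fibroblast growth factor, fell from 843, 817 and 779 normalised counts in vehicle to 166, 149.6 and 147 at the high dose (log2 -2.41 ± 0.0985 SE, DESeq2 adjusted p = 6.16e-130). FGF5 went from a mean of 772 ± 9.55 to 494 ± 24.9 (log2 -0.65, DESeq2 adjusted p = 4.03e-15). HBEGF, a ligand of the EGF receptor, went from 598 ± 43.6 to 1057 ± 47.8 (log2 0.82 ± 0.0762, DESeq2 adjusted p = 3.48e-26). At the medium dose 14 ligands were tested, with 2 called higher (FGF1 and PDGFB) and 2 lower (FGF7 and PDGFD). Over all genes 3.81% were called at this dose and 2.34% called higher. Both ligands called higher were of low level, with means of 35.5 for FGF1 and 27.3 for PDGFB. FGF1 passed narrowly (DESeq2 adjusted p = 0.0408), and had 30.3 ± 2.60 in vehicle and 24.0 ± 8.93 at the high dose.

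Receptors and kinases carry the signal that these inhibitors restrain. Of 23 genes for receptors and the RAS to ERK relay, 0 were called higher and 2 lower at the high dose in both DESeq2 and edgeR, beside 18.2% of all genes called in either direction, with a median log2 fold change of 0.04. By adjusted p alone 14 of the 23 passed, beside 46.5% of all genes, and the same 9 higher and 5 lower had an unadjusted p under 0.05. The genes called lower were both receptors of platelet-derived growth factor. PDGFRA had 587, 611 and 563 normalised counts in vehicle and 248, 231 and 191 at the high dose (log2 -1.40 ± 0.102 SE, DESeq2 adjusted p = 6.07e-42), and was also called lower at the medium dose. PDGFRB had 1591, 1537 and 1533 in vehicle and 706, 712 and 689 at the high dose (log2 -1.15 ± 0.0565, DESeq2 adjusted p = 1.02e-89). Of 18 genes of the JNK, p38 and ERK5 relays 0 were called in DESeq2 at any dose, with a median log2 fold change of 0.03 at the high dose. Over all genes 18.2%, 3.81% and 0.118% were called at the high, medium and low dose. At the high dose 5 of the 18 were higher and 6 lower at an unadjusted p under 0.05 in DESeq2. By adjusted p alone 10 of the 18 passed at that dose, beside 46.5% of all genes. MAPK10, a JNK of low level (mean of 14.4 normalised counts), was called lower by edgeR and in DESeq2 with TMM factors or a minimum mean count of 10. In DESeq2 the p38 kinase MAPK12 was called higher without vehicle replicate 2, and MAP2K3, an activator of p38, was called lower without high replicate 3.

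Other transcripts known to follow ERK activity split. Of 11, 5 were called higher at the high dose (PHLDA1, MYC, ETV4, ETV5 and FOSL1) and 3 lower (FOS, EPHA4 and ETV1), beside 8.66% of all genes called higher and 18.2% called in all, and the median log2 fold change was 0.10. PHLDA1, an early gene induced by growth factors, had 4543, 4180 and 4653 normalised counts in vehicle and 20560, 19880 and 19490 at the high dose, a 4.48-fold increase (log2 2.16 ± 0.0421 SE in DESeq2). MYC, a growth-promoting transcription factor, had 901, 875 and 988 in vehicle, 1465, 1506 and 1506 with the medium dose, and 2945, 2638 and 2807 with the high dose (log2 1.60 ± 0.0556 against vehicle, DESeq2 adjusted p = 1.43e-180). MYC was the only one of the 11 called at the medium dose. EPHA4, an ephrin receptor, had 336, 344 and 325 in vehicle and 176, 137 and 153 at the high dose (log2 -1.12 ± 0.119, DESeq2 adjusted p = 4.43e-20). EGR1, a rapidly induced target of ERK, had a log2 fold change of 0.10 (DESeq2 adjusted p = 0.513). At the low dose 0 genes of these 6 lists were called by DESeq2 or edgeR, beside 0.118% of all genes called in DESeq2. Each list had 1 to 5 genes with an unadjusted p under 0.05. By adjusted p alone 1 ligand, 1 gene of the receptors and RAS to ERK relay and 1 of these 11 transcripts passed, all lower. Over all genes 306 of the 9304 tested passed, in either direction.

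**Figure D4:**
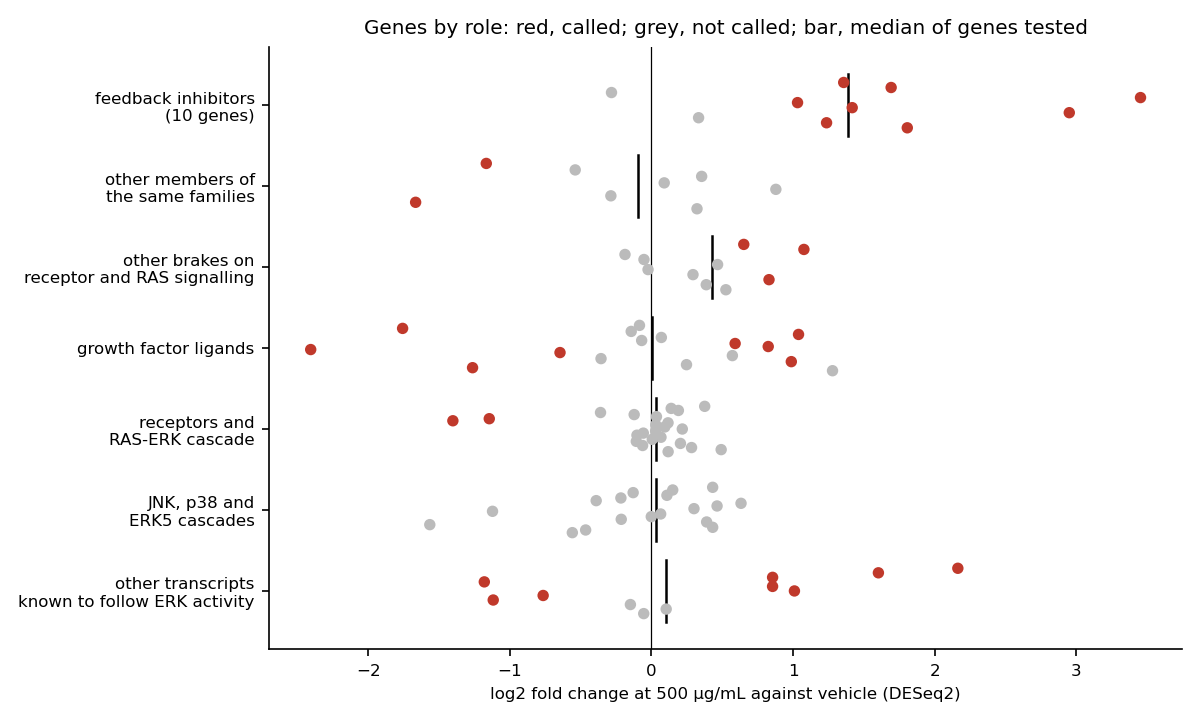
Log2 fold change at 500 µg/mL against vehicle in DESeq2 for the 10 genes and for 6 other lists of genes by role. There is 1 point per gene with an adjusted p, and the row labelled feedback inhibitors includes IER3. Red points are genes called, grey points genes not called, and vertical bars medians of the genes tested: 1.39 for the 10 genes and between -0.10 and 0.43 for the other lists.

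Ranked by rise at the high dose among the 11264 genes whose mean reached 100 normalised counts, IER3 stood at place 18, DUSP5 at 25, DUSP1 at 95, SPRY2 at 113, DUSP6 at 168, SPRY4 at 188 and DUSP10 at 242. DUSP4 stood at 2463 and SPRED1 at 8688, and DUSP8 was under the minimum. IER3 (mean of 106 over the 12 libraries) reached the minimum only through the high dose. It had means of 28.55, 33.07 and 51.65 in vehicle and at the low and medium dose, and of 310.8 at the high dose. Its place, and its entry into the comparison below, therefore rest on the same rise that is ranked. The genes most like each ranked gene across the 12 libraries were found by Pearson's r of log2(normalised count + 1), as a description in which the 4 dose groups supply most of the spread. SPRY2 was nearest to ABCA1, a cholesterol exporter (r = 0.998), and to PHLDA1 (0.997). DUSP5 was nearest to UPP1, a uridine phosphorylase, and to MAFG, a small MAF transcription factor (both 0.996). The nearest gene was DNAJB9, an endoplasmic reticulum chaperone, for DUSP1 (0.996), USP53 for DUSP6 (0.997), SMOX, a spermine oxidase, for SPRY4 (0.996) and SLC25A36, a mitochondrial carrier, for DUSP10 (0.992). It was WASF2, an actin regulator, for IER3 (0.995) and COG1, a Golgi protein, for DUSP4 (0.985). SPRED1 was nearest to RANBP6 (0.993) and ZFHX4 (0.992), which had log2 fold changes of -1.06 and -0.996 at the high dose beside -0.28 for SPRED1.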

How the data were processed

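Per the labels, the authors made directional mRNA libraries, sequenced paired ends, checked reads with FastQC 0.11.9, trimmed them with Trim Galore 0.6.5, aligned them to GRCh38 with STAR 2.7.3a and estimated expected counts per gene with RSEM 1.3.3. Versions are those of the submitters' processing notes; the methods of the study name other versions of Trim Galore and STAR. The deposited expected counts were unfiltered, and 8.75% of values were not whole. They share reads that fit several genes, and the use of strand is not given in the sources used here. Each column was matched to its library by a code in the label, with 0 columns left over.

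Expected counts were rounded and fitted with DESeq2 1.42.0 (R 4.3.3) over the 12 libraries, with a term for group and a two-sided Wald test, as in the methods of the study. P-values were Benjamini-Hochberg adjusted over all genes tested, with independent filtering at 0.05, and called genes had an adjusted p under 0.05 and a fold change over 1.5. The script was tested on simulated data. Symbols, coordinates and exon lengths came from GENCODE v44 (93.2% of IDs matched). Replicate pairs differed by more than counting noise (chi-square per degree of freedom 1.99 to 3.55), and all libraries were kept. Depth of 18863863 to 24200576 counts limits DUSP8 and IER3 most, which had under 100 normalised counts in vehicle.

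The 10 genes and all lists were chosen with earlier results of these data known. Named were all 10 genes and the genes called at the high dose in each other list. Of each list at most the 3 largest with a mean of at least 100 were given in full. Up to 2 of the most correlated genes, and opposite-strand genes over 10% of the exons, were named by the same rule. DUSP7, SPRED2, NF1, EGR1, FGF1, MAPK10, MAPK12, MAP2K3, DUSP8P5, SPRY4-AS1, HCG20 and the marker genes were added outside that rule after their values were seen. Alternatives were other filtering, thresholds, scaling, the replicate block, single libraries left out and edgeR 4.0.16. Protein sequences were not used here.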

Additional observations from a re-analysis of the deposited data

How the results depend on the processing

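The 8 calls at the high dose and the 0 calls at the low dose kept their counts within 1.5 times under every alternative run. The medium dose count was 6 rather than 3 by adjusted p alone and 0 with the Wald test against the fold threshold itself, a stricter null by construction, under which DUSP8 also lost its call at the high dose. Between low and medium dose the count was 2, and became 6 by adjusted p alone, 0 against the fold threshold, and 1 without independent filtering, with only the 2 groups compared and with the replicate block; it was 1 to 2 with single libraries left out, IER3 being the gene lost. Counts of all genes by adjusted p alone and against the fold threshold were 9040 and 1484 at the high dose (3546 as reported), 306 and 2 at the low dose (11), 4157 and 114 at the medium dose (537), 6738 and 480 from medium to high (1679), and 2657 and 68 from low to medium (273). With edgeR they were 30 and 809 for the low and medium dose and 427 from low to medium. At the low dose they were 18 without independent filtering, 6 with only the 2 groups compared and 5 to 13 with single libraries left out, and from low to medium 164 to 265 with single libraries left out.

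Of the log2 fold changes of the 10 genes under all alternatives, 759 kept their direction and call status, and 18 lost a call. Another 11 gained a call, all by adjusted p alone, where no fold threshold applied and the fold change itself was the same. The other 12 changed sign, all with an adjusted p of 0.767 or higher. With TMM factors SPRY2 at the low dose was -0.000485. Over all 16 alternatives the ranges were -0.00646 to 0.0306 for DUSP4 at the medium dose, -0.0969 to 0.106 for DUSP5, -0.122 to 0.0041 for DUSP6 and -0.0334 to 0.0442 for SPRY2 at the low dose, and -0.0488 to 0.000512 for DUSP4 and -0.157 to 0.0962 for DUSP8 from low to medium. The cause was not tested. With each scaling the median log2 fold change of all genes tested lay within 0.01 of 0. Scaling of this kind brings that median near 0 by construction, so the value is no check of the scaling.

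The labels give the replicate numbers no meaning. Deviations of same-numbered libraries correlated from -0.118 to 0.221, with 5 of 18 pairs over 0.1, and those of other pairs from -0.158 to 0.0981. The 3 same-numbered pairs of low and medium dose were all over 0.1 (0.158, 0.124 and 0.193), and no other pair of groups had all 3 over 0.1. High dose replicate 3 was also over 0.1 with replicate 3 of the low dose (0.135) and of the medium dose (0.221). The other same-numbered pairs with the high dose were at 0.058 or lower. The numbers may therefore pair the low and medium dose groups, and in part the high dose group, which was not tested. The blocked count between low and medium dose was 1. The replicate block changed no other count of calls beyond 1.5 times. Depth leaves the small changes of DUSP8 and IER3 at the low and medium doses the least resolved.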
